A study of Danio rerio with 6 samples.

Results

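The genes described here encode antioxidant enzymes, the enzymes that make and use glutathione, and proteins that store or export iron. They were taken by gene symbol: the prefixes gst (before a letter), gpx, prdx, txn, sod (before a digit), fth, hmox, mt2, nqo1, glrx, msr, gcl, srxn and keap1, and the symbols cat, gsr, nfe2l2a, slc40a1 and tfr1a, with tfa and selenop left out. The rule used no measured value. It found 50 of 8793 genes with a single symbol in the platform annotation, measured by 63 of 15502 probe sets. No single-symbol probe set matched hmox, mt2, srxn or tfr1a, so these were not analysed here, and 3 probe sets that share a matching symbol with another gene were left out.

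Signal was measured on 6 Affymetrix Zebrafish Genome Arrays, 3 of runzel (ruz) mutants and 3 of wildtype siblings (WT), at 3 to 3.5 days after fertilization (dpf), when the muscle phenotype first becomes visible. The series title ascribes runzel to a titin mutation; the allele itself is not given in the labels. Per the labels, head, heart and gut were cut away and the muscle of trunk and tail was pooled before RNA extraction. The series design states that mutants and siblings were matched within each of 3 clutches, without saying which arrays share a clutch.

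Cells meet reactive oxygen in layers. Superoxide dismutases turn superoxide into hydrogen peroxide, which catalase breaks down without either glutathione or thioredoxin. Glutathione peroxidases and peroxiredoxins remove it at the expense of glutathione and thioredoxin, while glutathione S-transferases join glutathione to reactive compounds. Keap1 holds the transcription factor Nrf2 (nfe2l2a in zebrafish) in check until oxidants or electrophiles release it to switch on many of these genes, and ferritin keeps iron from driving further radical formation.

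Median signals of the arrays lay between 602 and 672, and arrays of a group correlated at 0.958 to 0.97. For the actin controls, the 3′ over 5′ signal, a measure of RNA integrity, was 2.64, 2.03 and 2.78 on ruz arrays, against 1.43, 1.37 and 1.74 on WT arrays. The GAPDH ratio was 1.46, 1.54 and 1.51 on ruz arrays, against 1.60, 1.59 and 1.53 on WT arrays. All 19 skeletal muscle markers on the array were above the low-signal filter, with a summed signal of 1091092 to 1267293 in ruz and 1137332 to 1341957 in WT. Markers of tissues that dissection should have removed or reduced were also present, and their values are given further below.

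In the fit without a block none of the antioxidant and iron genes passed between ruz and WT muscle, and with the replicate number as a block a single gene did. Of the 50 genes, 45 passed the low-signal filter at their brightest probe set and 5 (gstcd, gsto1, gpx8, msraa and txnl4b) were too dim to test. In limma without the block, called unpaired below, 0 of 45 passed, as did 0.0% of all 6136 tested genes. At an unadjusted p under 0.05 there were 5 of 45 (11.1%), against 4.97% of all genes. In limma with the block, called paired, 1 of the 45 (2.22%) fell and 0 rose, against 0.587% of all genes lower and 0.717% higher. The gene that fell was gstk1, and with a random replicate block, whose correlation is estimated, it did not pass (limma adjusted p = 0.0756) and 0 members were called.

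Most changes were small and below 0. Of the 45 tested members 34 lay below 0 and 11 above, against 49.5% of all tested genes below 0, and the median log2 change was -0.09, against 0.00 over all tested genes. The number below 0 was 26 without WT replicate 1 and 28 without ruz replicate 3, and the median was then -0.038 and -0.043. The members were bright, at a median percentile of 88.2 by mean signal. The median change over all probe sets was 0.006 at the filter used and -0.009 at the 60th percentile filter. Under quantile normalization 32 of the 45 members lay below 0, with a median of -0.074. The part of brightness in these values was not tested. Lower signal in all 3 pairs was seen for 13 members, 28.9% of them, against 17.7% of all genes, and higher signal in all 3 pairs for 3 members, 6.67%, against 17.7%. In the paired fit 10 members had an unadjusted p under 0.05 with lower signal, 22.2% against 6.55% of all genes, and 2 with higher signal, 4.44% against 6.52%. These counts depended on the setting. In either direction there were 12 of the 45 in the paired fit, 14 under median centring, 6 without the intensity trend and 5 without replicate 1. Over all 9301 probe sets the counts were 1181, 1244, 1029 and 789. In the unpaired fit the members numbered 5, with 7 under median centring and 2 without ruz replicate 3. Beside these stood 447, 446 and 606 of all probe sets. The paired 95% interval of the log2 change lay within 1 on either side of 0 for all 45 tested members, and the unpaired interval for 42. Changes are on the scale of log2(signal + 50).

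**Figure D1:**
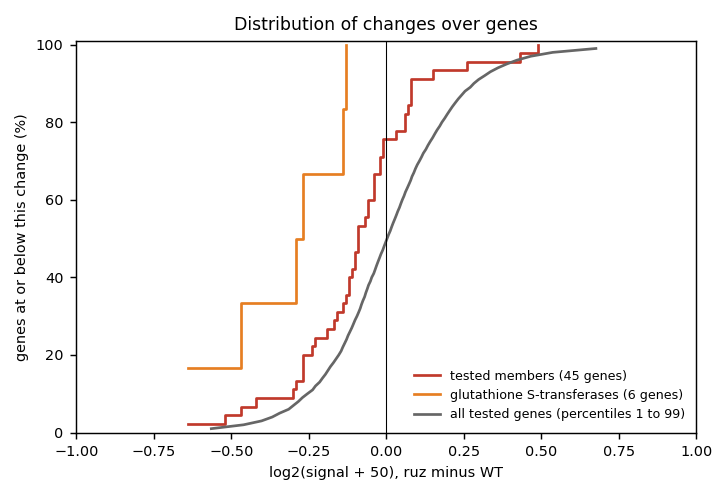
Cumulative share of genes (vertical axis, percent) at or below each change in log2(signal + 50), ruz minus WT (horizontal axis), for the 45 tested antioxidant and iron genes, the 6 tested glutathione S-transferases among them, and all tested genes. The curve of the 45 genes runs left of that of all genes over most of its length, with medians of -0.09 and 0.00, and all 6 glutathione S-transferases lie below 0.

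Glutathione S-transferases included the 1 gene called and had the lowest median of the 9 role groups, -0.28 over 6 tested genes. All 6 lay below 0, a count added after the data were seen, and 5 were lower in all 3 pairs. Of all tested genes, 49.5% lay below 0 and 17.7% were lower in all 3 pairs. The kappa-class gene gstk1, whose product works in mitochondria and peroxisomes in mammals, had signals of 2028, 1916 and 1789 on ruz arrays, against 2881, 3492 and 2712 on WT arrays. Every ruz array was below every WT array, as for 5.0% of all genes. The mean was 1911 ± 119 in ruz and 3028 ± 411 in WT (SD, n = 3 each), which puts ruz at 64.0% of WT. The log2 change was -0.64 ± 0.184 (SD over 3 pairs) and passed when limma compared within pairs (adjusted p = 0.0385), but not in unpaired limma (adjusted p = 0.772). The exact permutation p was 0.1, the smallest that 3 against 3 arrays allow. In limma the paired call was also lost without replicate 1 (adjusted p = 0.154), without replicate 2 (adjusted p = 0.20) and without the intensity trend (adjusted p = 0.234). In pooled tissue, fewer cells of a type and less RNA per cell cannot be told apart.

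The theta-class gene gstt1a came next, with signals of 6457, 6129.8 and 5949 on ruz arrays, against 9356, 8759 and 7612 on WT arrays. The groups did not overlap, and ruz stood at 72.4% of WT. Its log2 change of -0.47 ± 0.0978 missed the threshold in the paired limma fit (adjusted p = 0.0544) and in the unpaired limma fit (adjusted p = 0.818), with an exact permutation p of 0.1. It passed in limma with the stricter filter (paired adjusted p = 0.0456) and without replicate 3 (paired adjusted p = 0.0419). Its paralog gstt1b had a log2 change of -0.13, and the signals of its groups overlapped.

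The pi-class gene gstp1.2, of a class that Nrf2 switches on in zebrafish larvae, had 15259, 15528 and 13275 on ruz arrays, against 18505, 16525 and 17906 on WT arrays. These groups did not overlap either, at 83.2% of WT. Lower signal without overlap was seen for 8.89% of the 45 tested members, against 5.0% of all genes. The log2 change of -0.27 ± 0.171 did not pass (paired limma adjusted p = 0.257). The omega-class gene gsto2 was at -0.29 and the mu-class gene gstm.1 at -0.14, both lower in 3 of 3 pairs and not passing. Of the dim genes, gsto1 had signals of 65.1 to 178 in ruz and 104 to 239 in WT, and gstcd 57.5 to 158 in ruz and 42.0 to 69.5 in WT. All 6 tested members of this group stayed below 0 under quantile normalization and median centring. Without WT replicate 2 the number was 4, and without ruz replicate 3 it was 5.

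**Figure D2:**
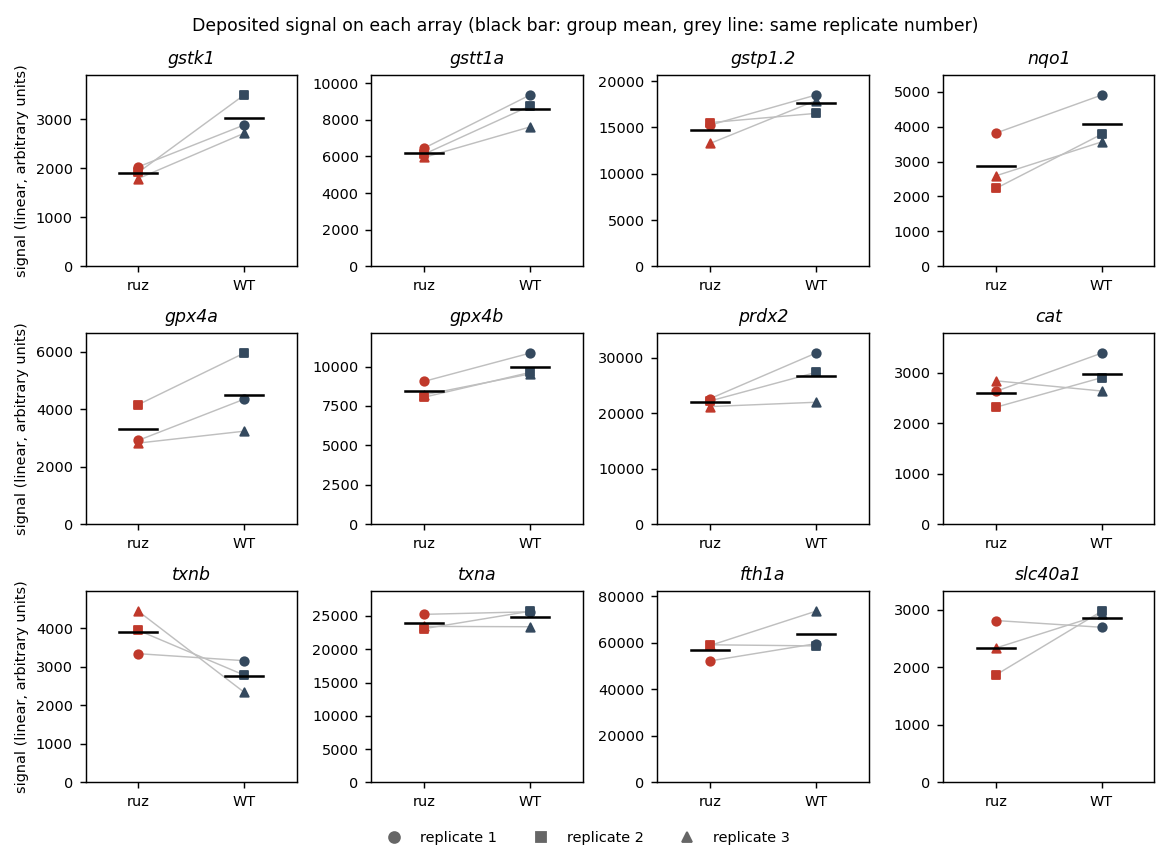
Deposited signal (vertical axes, linear, each from 0) of 12 antioxidant and iron genes on the 3 ruz arrays (red, left) and the 3 WT arrays (dark, right); marker shapes give the replicate number, grey lines join equal numbers and black bars are group means. For gstk1, gstt1a, gstp1.2 and gpx4b every ruz array lies below every WT array, for txnb every ruz array lies above, and the other 7 genes overlap. The panels include every tested member whose groups did not overlap at its brightest probe set. Such genes were 8.89% of the 45 on the lower side and 2.22% on the higher, against 5.0% and 5.67% of all genes.

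Glutathione peroxidases reduce peroxides with glutathione. The 4 tested genes lay below 0, with a median of -0.16, and none passed. The gpx4 pair, whose products reduce lipid peroxides within membranes, was lower in all 3 pairs. For gpx4b the signals were 9061, 8056 and 8205 on ruz arrays, against 10845, 9622 and 9529 on WT arrays, without overlap. Its pairs differed by -0.26, -0.25 and -0.21, a mean log2 change of -0.24 ± 0.0242 (paired limma adjusted p = 0.303, exact permutation p = 0.1). For gpx4a they were 2923, 4166 and 2828 on ruz arrays, against 4352, 5957 and 3241 on WT arrays. Here replicate 2 was the highest in both groups and the groups overlapped, so that the log2 change of -0.42 ± 0.201 stood out within pairs (unadjusted paired interval -0.69 to -0.16) but did not pass (paired limma adjusted p = 0.162). The genes of the soluble peroxidases, gpx1a and gpx1b, had log2 changes of -0.07 and -0.01. The endoplasmic reticulum member gpx8 was dim, at 170 to 518 in ruz and 250.1 to 500.3 in WT.

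Peroxiredoxins remove hydrogen peroxide with electrons from thioredoxin, and their 5 genes had a median of -0.04. The cytosolic peroxiredoxin gene prdx2 had 22627, 22208 and 21203 on ruz arrays, against 30812, 27341 and 21975 on WT arrays. The ruz arrays lay close together, while WT replicate 3 sat below ruz replicates 1 and 2, so the groups overlapped and pair 3 differed by only -0.05. Its log2 change of -0.27 ± 0.199 did not pass (paired limma adjusted p = 0.239). The brightest of 3 prdx1 probe sets was at -0.23 and another at -0.18, but the third was at 0.21, so the probe sets of this second cytosolic gene disagreed in sign. The genes prdx4 (endoplasmic reticulum) and prdx5 had log2 changes of -0.04 and 0.03. The mitochondrial prdx3 had pair differences of 0.59, 0.01 and -0.42, with ruz replicate 1 the highest of all arrays.

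Superoxide dismutases and catalase did not pass, and the 3 tested genes lay below 0 with a median of -0.10. Catalase (cat), the peroxisomal hydrogen peroxide enzyme, had 2632, 2317 and 2840.1 on ruz arrays, against 3387, 2902 and 2638.5 on WT arrays. It was lower in pairs 1 and 2 and higher in pair 3, a log2 change of -0.19 ± 0.256. The cytosolic dismutase gene sod1 was at -0.10 ± 0.243. The mitochondrial dismutase gene sod2 had 6324, 7528 and 4872 on ruz arrays, against 7012, 6726 and 5594 on WT arrays. Its groups overlapped throughout, and its log2 change of -0.06 turned to 0.105 without ruz replicate 3.

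The Nrf2 system was represented by 3 genes, which lay below 0 with a median of -0.09. Signals of nqo1, a quinone reductase gene that Nrf2 activates in vertebrates, were 3815, 2230.4 and 2591 on ruz arrays, against 4904, 3781 and 3561 on WT arrays. Each ruz array lay below the WT array of its number, with ruz replicate 1 above WT replicates 2 and 3. The mean was 2879 ± 831 in ruz and 4082 ± 720 in WT (SD, n = 3 each). The log2 change of -0.52 ± 0.204 did not pass (limma adjusted p = 0.0912 paired and 0.977 unpaired, exact permutation p = 0.3). The transcription factor gene nfe2l2a was at -0.09 on its brighter probe set, with pair differences of -0.55, -0.07 and 0.35, and at -0.47 on the other. On that other probe set the pair differences were -1.14, -0.20 and -0.09, with an unadjusted paired interval of -0.90 to -0.04. It did not pass (paired limma adjusted p = 0.346). Its signals varied widely in both groups, at 588.5, 780.6 and 2309.8 on ruz arrays and 1353.5, 901.3 and 2454.8 on WT arrays. The inhibitor gene keap1a was at -0.04, with pair differences of -0.39, 0.57 and -0.29.

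**Figure D3:**
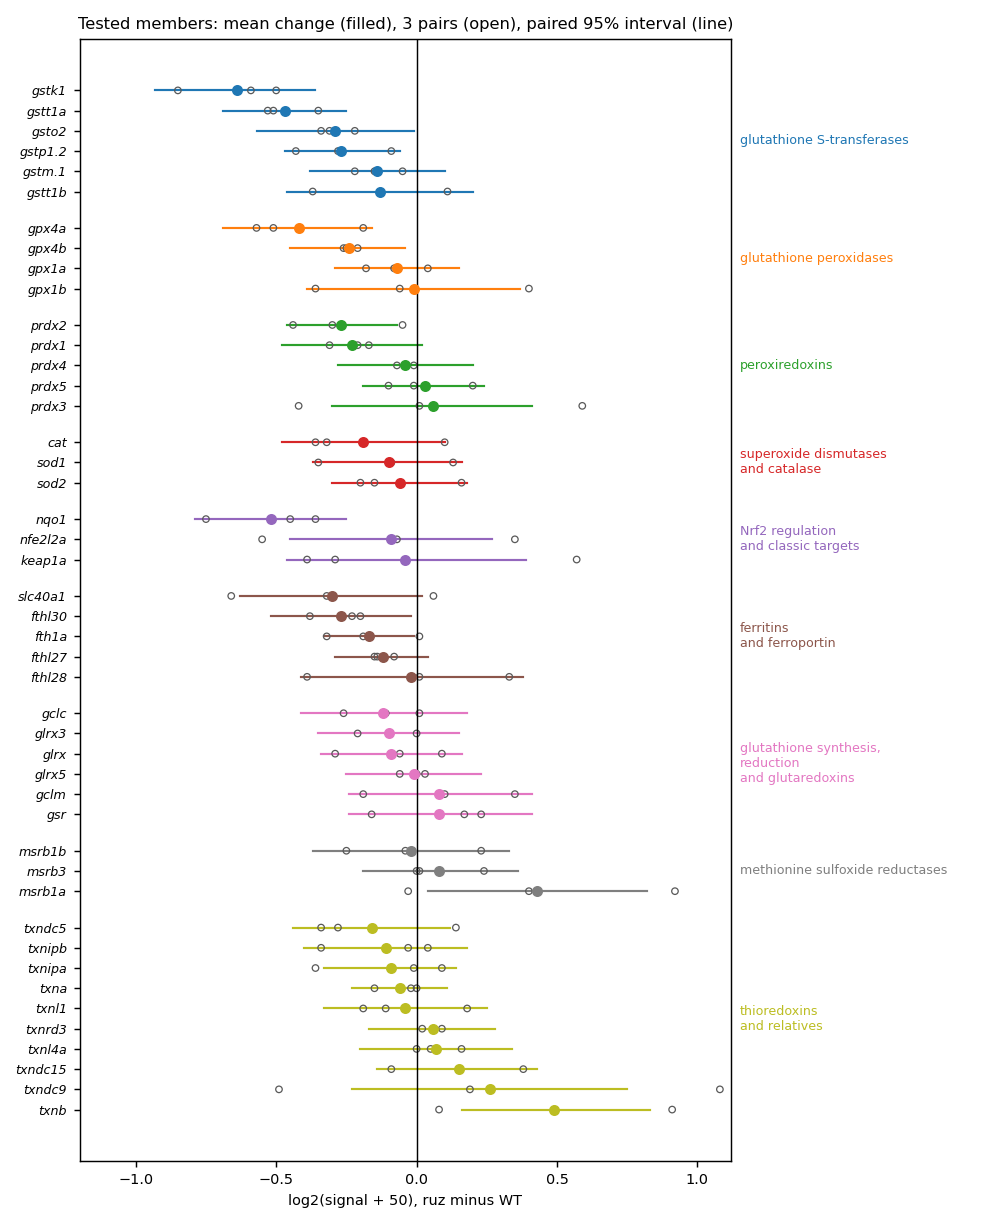
Change in log2(signal + 50), ruz minus WT (horizontal axis), of the 45 tested genes by role group (rows); filled points are means, open points the 3 pairs and lines the paired 95% interval, not adjusted for the number of genes. Intervals of 10 genes lie below 0, gstk1 with the lowest mean, and those of msrb1a, at the brightest of its 3 probe sets, and txnb above it.

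Iron genes showed no call, and the 5 tested genes lay below 0 with a median of -0.17. The ferritin heavy-chain gene fth1a had 52214, 59155 and 58845 on ruz arrays, against 59615, 58673 and 73554 on WT arrays, a log2 change of -0.17 ± 0.168 (paired limma adjusted p = 0.363). WT replicate 3 stood apart as the highest array. The ferritin-like genes fthl27, fthl28 and fthl30 had log2 changes of -0.12, -0.02 and -0.27. Near-identical ferritin copies may share signal, and the fthl30 probe set belongs to a class prone to cross-hybridisation, so these values are uncertain. The gene of the iron exporter ferroportin, slc40a1, had 2809, 1866 and 2333 on ruz arrays, against 2692, 2970.1 and 2915 on WT arrays. It was lower in 2 of 3 pairs, with a log2 change of -0.30 ± 0.358 (paired limma adjusted p = 0.427).

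Of the genes for glutathione synthesis, glutathione reduction and glutaredoxins, 6 in all, none passed. The subunit genes of glutamate-cysteine ligase, which makes the precursor of glutathione, were at -0.12 (gclc) and 0.08 (gclm), and the glutathione reductase gene gsr was at 0.08. The glutaredoxin gene glrx had 5166, 6020.1 and 4199 on ruz arrays, against 5396, 5667 and 5149 on WT arrays, with overlapping groups and a log2 change of -0.09. The genes glrx3 and glrx5, whose products handle iron-sulphur clusters, were at -0.10 and -0.01. The paired 95% interval of all 6 genes lay within 0.5 of 0.

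Of 10 tested genes of thioredoxin and its relatives none passed, with 5 above 0, 5 below and a median of 0.01. The thioredoxin gene txna had 25242, 23092 and 23434 on ruz arrays, against 25626, 25706 and 23382 on WT arrays. Its log2 change was -0.06 ± 0.0847, with an unpaired interval of -0.27 to 0.15, and 0.025 under quantile normalization. The other thioredoxin gene, txnb, had 3336, 3939.9 and 4435 on ruz arrays, against 3155, 2783 and 2339.8 on WT arrays. Here every ruz array was above every WT array, as for 5.67% of all genes. At the brightest probe sets txnb was the single member of which this was true, and it also held at the dimmer probe set of txnrd3. Its log2 change was 0.49 ± 0.415, with pair differences of 0.08, 0.49 and 0.91, and it did not pass (limma adjusted p = 0.199 paired and 0.95 unpaired, exact permutation p = 0.1). In the other direction, gstk1, gstt1a, gstp1.2 and gpx4b did not overlap, 8.89% of the 45 genes against 5.0% of all genes.

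The thioredoxin reductase gene txnrd3 was higher in all 3 pairs on both of its probe sets, at 0.06 on the brighter and 0.25 on the other, where ruz arrays at 1584, 1799 and 1712 lay above WT arrays at 1232, 1539.7 and 1502. The genes of the thioredoxin-interacting proteins, txnipa and txnipb, which respond to glucose in mammals, were at -0.09 and -0.11. Among genes with a thioredoxin-like domain, txndc9 had pair differences of 1.08, -0.49 and 0.19, with WT replicate 1 far below the other arrays at 1257. The spliceosome gene txnl4a was at 0.07, txnl1 at -0.04 and txndc15 at 0.15. The 5 tested probe sets of txndc5, an oxidoreductase gene of the endoplasmic reticulum, ran from -0.23 to -0.10. A dim probe set of txndc5 disagreed in sign, at 0.66, with pair differences of 1.33, 0.82 and -0.16.

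Methionine sulfoxide reductases repair oxidised methionine in proteins, and none of the 3 tested genes passed. The gene msrb1a had 2095, 1211 and 1273 on ruz arrays, against 1578, 1240 and 649 on WT arrays, a log2 change of 0.43 ± 0.478 (paired limma adjusted p = 0.347). The difference was 0.40 in pair 1, -0.03 in pair 2 and 0.92 in pair 3. Its other tested probe set was at 0.22, with pair differences of -0.08, -0.02 and 0.75 and a paired interval of -0.25 to 0.68, and a dim one was at 0.06. The gene msrb3 had 2118, 2744 and 2470 on ruz arrays, against 2114, 2723 and 2088 on WT arrays, with a log2 change of 0.08, and msrb1b was at -0.02. The sulfoxide reductase gene msraa was dim, at 269 to 549 in ruz and 249.8 to 512 in WT.

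Other genes of these pathways gave no call. Over 5 lists, of glutathione supply, NADPH supply, Nrf2 partners, selenoproteins and other redox proteins, and iron and heme, 0 of 59 tested genes passed in limma with or without the block, beside the 0.587% lower and 0.717% higher of all genes in the paired fit. At an unadjusted paired p under 0.05, 6 were lower (10.2%, against 6.55% of all genes) and 2 higher (3.39%, against 6.52%). At an unadjusted unpaired p under 0.05 there was 1 gene (1.69%, against 4.97%), and 31 of the 59 (52.5%, against 49.5%) lay below 0. List medians were -0.05 for glutathione supply, -0.09 for NADPH supply, -0.06 for Nrf2 partners, 0.00 for selenoproteins and 0.03 for iron and heme. The smallest paired p-values were those of chac1, a glutathione-degrading enzyme gene (log2 change -0.31 ± 0.0238, limma adjusted p = 0.126), and slc3a2b, an amino acid transporter subunit gene (-0.38 ± 0.168, limma adjusted p = 0.184). Both had an exact permutation p of 0.4. The largest change was a rise, that of me1 in the NADPH supply list, higher in all 3 pairs. Its log2 change was 0.46 ± 0.175 (paired limma adjusted p = 0.252, exact permutation p = 0.1).

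Among markers of other tissues, some lists lay lower in ruz, as the glutathione S-transferases did, and others did not. The lists were chosen with earlier results of these data known, so their counts are not independent of those results. Of all tested genes, 0.587% were called lower and 0.717% higher in the paired limma fit, and 49.5% lay below 0. Gut, liver, pancreas and yolk markers, 18 of 19 tested genes below 0 with a median of -0.34 and 4 called lower in the paired limma fit, had summed signals of 380062, 344917 and 358343 on ruz arrays, against 448365, 439884 and 447590 on WT arrays. Of this list 7 genes, among them the liver gene fabp10a and the pancreas genes ela2, ela2l, ela3l and ins, were below the low-signal filter. Epidermis markers, 19 of 21 below 0 with a median of -0.16 and 5 called lower, summed to 423000, 388412 and 470818 on ruz arrays, against 482781, 452812 and 516317 on WT arrays, and 1 marker was below the filter. Endothelium markers, 5 of 6 below 0 with a median of -0.24 and 2 called lower, summed to 15500 to 18254 in ruz and 21912 to 23201 in WT, and tek was below the filter. Red blood cell markers, 5 of 8 below 0 with a median of -0.13 and 1 called lower, summed to 101520, 111069 and 137548 on ruz arrays, against 119101, 129804 and 166156 on WT arrays, lower in each pair, with 2 of 10 below the filter. Macrophage and neutrophil markers, 2 of 9 below 0 with a median of 0.31, summed to 25133, 24715 and 19538 on ruz arrays, against 19924, 20557 and 17055 on WT arrays, and 6 of 15 were below the filter. No marker was at 0 on any array. Medians were 0.02 for spinal cord and nerve, 0.00 for notochord and skeleton and -0.01 for pigment cells, with none called. Skeletal muscle markers ran from -0.78 to 1.35 with a median of -0.06, and 3 of 19 were called higher and 1 lower. The 3′ to 5′ ratio was higher in ruz for the actin controls but not for GAPDH. The part of these tissues, and of the 3′ to 5′ ratios, in the values of gstk1 and the other members was not tested.

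**Figure D4:**
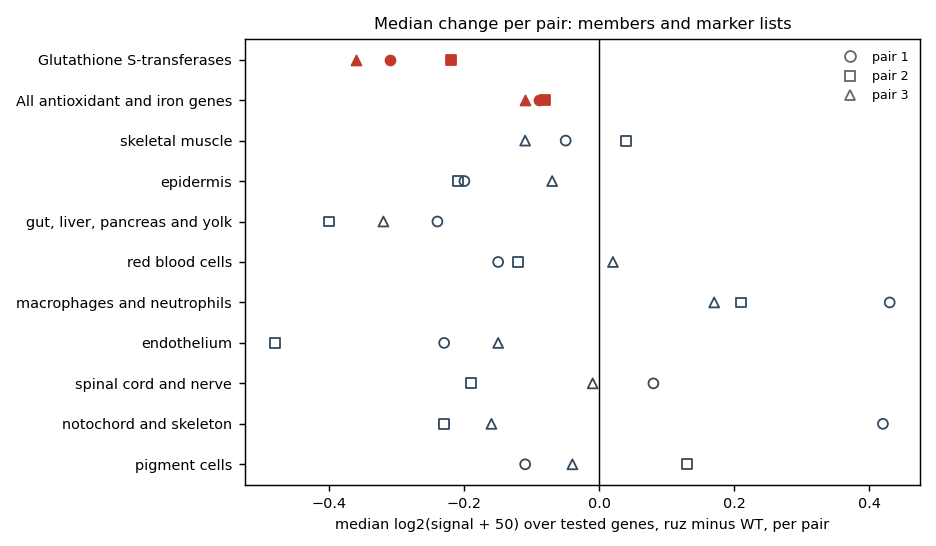
Median change in log2(signal + 50), ruz minus WT (horizontal axis), in each pair (marker shapes), for the 6 tested glutathione S-transferases and all 45 tested antioxidant and iron genes (red, filled) and for 9 lists of tissue markers (open). Glutathione S-transferase medians of -0.31, -0.22 and -0.36 overlap in range with those of gut, liver, pancreas and yolk markers at -0.24, -0.40 and -0.32 in pairs 1, 2 and 3, though pair 2 is the smallest drop of the enzymes and the largest of the markers, while macrophage and neutrophil markers lie above 0 in all 3 pairs.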

How the data were processed

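The authors deposited scaled signal intensity on a linear scale for each probe set of each array. Their 2% trimmed mean was 1500.42 to 1500.46 on every array. Per the labels' protocols, arrays carried biotin-labelled cRNA and were quantified with default GeneChip Operating Software settings; how probes were summarised is not stated in the labels. The scaling was kept. Of 15617 probe sets, 115 controls were left out. Values were analysed as log2(signal + 50), and probe sets under the 40th percentile of mean log2 signal (8.904) were dropped, leaving 9301. Groups were compared, ruz minus WT, with limma 3.58.1 in R 4.3.3 (intensity trend, two-sided, Benjamini-Hochberg over all tested probe sets, threshold 0.05). The fits were tested on simulated data whose planted changes were larger than that of any tested member. Recovery of changes of the size seen here was not tested. The fit without a block is the primary one, and it leaves out the matching by clutch that the series design states. Deviations from group means correlated at 0.551, 0.389 and 0.526 between arrays of the same number and at -0.401 to -0.152 otherwise. Such deviations cancel out within a group, so positive values for equal numbers push the other values negative on average. The negative values are thus no separate evidence. Equal numbers were treated as pairs because the design states matching by clutch and the array titles of both groups share replicate numbers. No label ties a number to a clutch. The correlations above show that arrays of equal number varied together, but cannot tell a shared clutch from a shared processing batch. A gene is represented by its brightest probe set. Exact permutation tests ran over the splits of the 6 arrays. The number of arrays limits the precision.

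Genes given with all signals are those passing in either fit, non-overlapping ones with an absolute log2 change of at least 0.5, and the brightest of each role group. The signals of gstt1a, gpx4a, txnb, cat, slc40a1 and msrb1a, and the named genes of other pathways, were chosen after their values were seen. The same holds for the signals of the dimmer probe sets of txnrd3 and nfe2l2a. Members and lists were chosen with earlier results of these data known. All 63 member probe sets had an Entrez identifier in the RefSeq gene table, and no symbol changed. No sequences are shown, since none were used here.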

Additional observations from a re-analysis of the deposited data

How the results depend on the processing

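With 3 arrays per group, calls rest on the pairing. The number of members called lower was 0 in the limma fit without the block and 1 with the replicate block; from the paired fit, it was 0 with no replicate block, 0 with the random replicate block, 0 without the intensity trend and 2 with the 60th percentile filter, and ran from 0 to 2 when a pair was left out (gstk1 and gstt1a). No member was called higher in any setting. Over all 9301 probe sets the unpaired fit called 0, with 447 at an unadjusted p under 0.05, the paired fit 67 higher and 44 lower (46 and 47 under median centring, 3 and 0 without the intensity trend), and the random block 11 and 8. The median log2 change of the tested members was -0.143 under median centring, where that of all probe sets was -0.048, and ran from -0.123 to -0.0379 with an array left out. The number below 0, a count added after the data were seen, ran from 26 to 35 of 45 with an array left out. That of the glutathione S-transferases, added likewise, ran from 4 to 6 of 6. The log2 change of txna turned to 0.0253 under quantile normalization in both fits. With an array left out, that of glrx ran from -0.211 to 0.046, that of msrb3 from -0.00241 to 0.206 and that of sod2 from -0.207 to 0.105; with a pair left out, glrx ran from -0.177 to 0.0121 and sod2 from -0.173 to 0.00686. The cause of these changes was not tested. Of the other named members (fth1a, gpx4a, gpx4b, gstk1, gstp1.2, gstt1a, nqo1, prdx2 and txnb), each kept its direction in every setting run. Their size depended on single arrays for gpx4a (-0.638 without WT replicate 3 to -0.204 without WT replicate 2) and nqo1 (-0.738 without ruz replicate 1 to -0.357 without ruz replicate 2). The same held for fth1a (-0.225 to -0.0622), prdx2 (-0.399 to -0.155) and, with a pair left out, txnb (0.287 to 0.701).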
